A study of Mus musculus with 12 samples.

Results

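The alpha and beta crystallins are the water-soluble proteins that fill the cells of the lens and give it its refractive power. The 8 genes described here were taken by symbol from the deposited per-library tables of 24147 genes. They are Cryaa and Cryab, which encode the alpha crystallins, Cryba1, Cryba2 and Cryba4, which encode acidic beta crystallins, and Crybb1, Crybb2 and Crybb3, which encode basic beta crystallins. All 8 were found in every table, and all 8 passed the filter on low counts that left 14560 genes for testing.

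Alpha crystallins belong to the small heat shock protein family and bind unfolding proteins, which keeps the long-lived lens proteins in solution. Beta crystallins are structural proteins built from Greek key folds and assemble into dimers and larger complexes. Both classes are made most strongly by lens fiber cells, the elongated cells that form the bulk of the lens, while the single layer of epithelial cells beneath the anterior capsule is known for alpha crystallins and lower levels of beta crystallins. Transcription factors of the large Maf group, together with Pax6, Prox1 and Sox1, are known to bind crystallin promoters, and inherited changes in crystallin genes cause cataract in humans and mice.

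RNA came from the lens capsule with its attached lens epithelial cells, taken from mice aged 2 months whose fiber cells had been removed through an incision in the cornea to model cataract surgery. There were 4 groups with 3 libraries each, which were FNcKO at 48 h after surgery, FNcKO at 0 h, WT at 48 h and WT at 0 h. In FNcKO mice Fn1, the gene for fibronectin, is conditionally knocked out. Their strain is labelled Mixed (C57BL/6, 129, FVB/N) and that of WT mice C57BL/6, so genotype and strain cannot be told apart. What drives the deletion, in which cells, and whether animals were pooled for a library the labels do not say. The design text calls the replicates biological, and all 4 groups had undergone the operation, so no group represents an intact lens.

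For 2 libraries the deposited files disagree. A combined table of 9 libraries holds, in the column named for the first WT library at 0 h, the counts that the per-library file gives for the first FNcKO library at 0 h, in all 24147 genes, while its other 8 columns equal their own files. Each library's own file is followed here, and the results that rest on these libraries are also given without both. Library totals lay between 8368160 and 10862573 counts. Levels below are CPM, counts scaled to a common library size with TMM factors, values after ± are SDs over 3 libraries, and libraries are listed in the order of replicates 1, 2 and 3. The targeted gene Fn1 had 146, 297 and 687 CPM in FNcKO at 48 h, against 1514, 527 and 978 CPM in WT at 48 h. At 0 h it had 16.8, 9.80 and 8.31 CPM in FNcKO and 18.9, 23.0 and 15.5 CPM in WT. The genotypes overlapped in Fn1 at both times, and the third FNcKO library at 48 h lay above the second WT library. Of 16 lens epithelial cell genes, all 16 had counts in all 6 libraries at 48 h, and Pax6, a transcription factor of the lens epithelium, lay between 294 and 402 CPM in FNcKO at 48 h, between 506 and 521 CPM in FNcKO at 0 h, between 353 and 393 CPM in WT at 48 h and between 416 and 509 CPM in WT at 0 h. The log2 difference of Pax6 between 48 h and 0 h averaged over genotypes was -0.41, against a median of -1.03 for the 16 genes.

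The 8 crystallin genes together held 11.5%, 7.04% and 1.45% of all counts in FNcKO at 48 h, against 15.5%, 13.1% and 23.3% in FNcKO at 0 h. In WT they held 1.75%, 7.19% and 5.76% at 48 h, against 19.1%, 12.4% and 14.4% at 0 h. The mean share was 6.65% ± 5.02 in FNcKO at 48 h and 17.3% ± 5.34 in FNcKO at 0 h, and 4.90% ± 2.82 in WT at 48 h and 15.3% ± 3.44 in WT at 0 h (SD, n = 3 each). Every library at 48 h lay below every library at 0 h. Within FNcKO at 48 h the highest and lowest shares differed 7.93-fold and within WT at 48 h 4.12-fold, while FNcKO at 0 h spanned 1.78-fold and WT at 0 h 1.54-fold. For bulk samples such as these, fewer crystallin-rich cells and less crystallin RNA per cell cannot be told apart. The counting error of these shares is far smaller than their spread. The lowest count of any of the 8 genes was 248 reads, for Cryba4 in the third FNcKO library at 48 h. Its share was 0.00296%, with an exact (Clopper-Pearson) 95% interval of 0.00261% to 0.00336%, which covers counting error only.

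**Figure D1:**
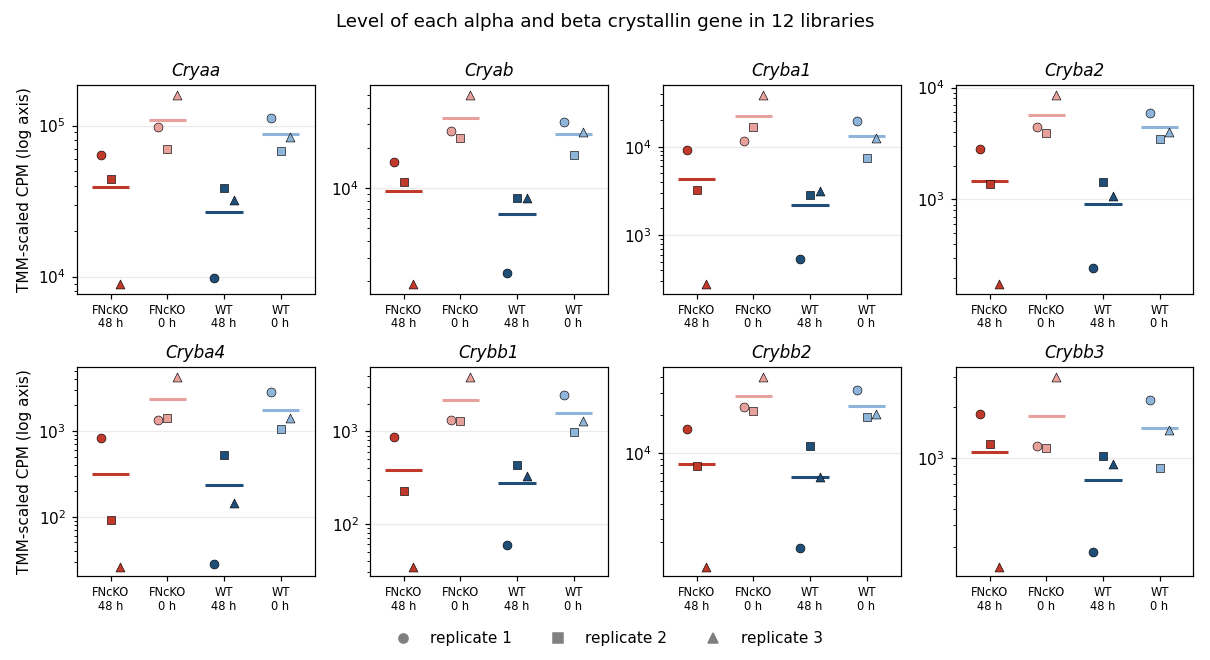
Level of each of the 8 crystallin genes in every library, in TMM-scaled CPM on a log axis; each symbol is 1 library, its shape gives the replicate number, and the horizontal line is the mean of 3 libraries. In every panel the third FNcKO library and the first WT library are the lowest of their 48 h groups.

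Cryaa, which encodes the lens-restricted alpha A crystallin, had 64239, 44156 and 8880 CPM in FNcKO at 48 h, against 97808, 70398 and 160402 CPM in FNcKO at 0 h. In WT it had 9775, 38636 and 32144 CPM at 48 h, against 111936, 67752 and 84547 CPM at 0 h. All 6 libraries at 48 h lay below all 6 at 0 h. Averaged over both genotypes Cryaa fell by 1.60 on the log2 scale (approximate SE 0.47, a 3.03-fold lower level at 48 h; edgeR quasi-likelihood test, Benjamini-Hochberg (BH) adjusted p = 0.0135).

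Cryab encodes alpha B crystallin, a small heat shock protein that is also abundant in heart and skeletal muscle. It had 15729, 11053 and 1893 CPM in FNcKO at 48 h, against 26920, 23603 and 50069 CPM in FNcKO at 0 h. WT libraries had 2298, 8429 and 8452 CPM at 48 h and 31313, 17762 and 26393 CPM at 0 h. Again the times did not overlap in either genotype. Cryab fell by 1.89 on the log2 scale in the average of both genotypes (SE 0.48, 3.72-fold; edgeR, BH-adjusted p = 0.00597), the smallest adjusted p among the 8 genes.

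Cryab shares its position on chromosome 9 (chr9:50751325-50756635, plus strand, mm10) with Hspb2, which encodes another small heat shock protein, lies on the minus strand and overlaps it by 1030 bases in the deposited coordinates. Hspb2 had 12.5, 13.9 and 5.49 CPM in FNcKO at 48 h, against 27.5, 21.2 and 31.7 CPM in FNcKO at 0 h, and 5.99, 14.3 and 11.8 CPM in WT at 48 h, against 41.2, 26.1 and 27.0 CPM in WT at 0 h. It too fell, by 1.45 on the log2 scale averaged over genotypes (SE 0.26, edgeR, BH-adjusted p = 0.000584), and its lowest library at 48 h in each genotype was the one lowest for Cryab. The labels name a stranded library kit, but the strand setting of the counting is not given, so reads from overlapping genes on opposite strands cannot be told apart.

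Among the acidic beta crystallins, Cryba1, which encodes both the A3 and A1 forms of beta crystallin, had 9276, 3222 and 276 CPM in FNcKO at 48 h, against 11569, 16585 and 38943 CPM in FNcKO at 0 h. WT libraries had 541, 2840 and 3132 CPM at 48 h and 19672, 7512 and 12410 CPM at 0 h. The times did not overlap within a genotype, but the first FNcKO library at 48 h lay above the second WT library at 0 h. Cryba1 fell by 2.50 on the log2 scale averaged over genotypes (SE 0.72, 5.65-fold; edgeR, BH-adjusted p = 0.0149). The gene lies at chr11:77718732-77725293 on the minus strand, and GENCODE annotates Nufip2 as overlapping it on the other strand. GENCODE also annotates an antisense gene overlapping Cryaa and a processed pseudogene overlapping Crybb2, each on the other strand. The limit given for Cryab and Hspb2 holds for these genes too.

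Cryba2, a structural beta crystallin gene on chromosome 1 (chr1:74889934-74893143, minus strand), had 2800, 1365 and 174 CPM in FNcKO at 48 h, against 4406, 3892 and 8654 CPM in FNcKO at 0 h. In WT there were 242, 1444 and 1068 CPM at 48 h and 5924, 3459 and 3995 CPM at 0 h. No library at 48 h reached the level of any at 0 h, and the gene fell by 2.12 on the log2 scale averaged over genotypes (SE 0.59, 4.36-fold; edgeR, BH-adjusted p = 0.0127).

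Cryba4, whose product assembles with other beta crystallins, showed the largest estimated change of the 8. It had 817, 90.4 and 26.2 CPM in FNcKO at 48 h, against 1326, 1400 and 4295 CPM in FNcKO at 0 h. WT libraries had 28.0, 524 and 144 CPM at 48 h and 2837, 1067 and 1408 CPM at 0 h. All libraries at 48 h were below all at 0 h, yet the libraries at 48 h differed among themselves 31.2-fold in FNcKO and 18.7-fold in WT. Cryba4 fell by 2.92 on the log2 scale averaged over genotypes, with the widest SE of the 8 genes (0.90, 7.58-fold; edgeR, BH-adjusted p = 0.0217).

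Crybb1, a basic beta crystallin gene, had 882, 226 and 34.5 CPM in FNcKO at 48 h, against 1342, 1298 and 3912 CPM in FNcKO at 0 h. WT libraries had 59.6, 433 and 329 CPM at 48 h and 2490, 977 and 1301 CPM at 0 h. Crybb1 was lower in each library at 48 h than in any at 0 h, and it fell by 2.53 on the log2 scale averaged over genotypes (SE 0.74, 5.77-fold; edgeR, BH-adjusted p = 0.0169). Cryba4 and Crybb1 are neighbours on chromosome 5, at chr5:112246533-112252502 on the minus strand and chr5:112255821-112269582 on the plus strand, with 3318 bases between their starts.

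Crybb2, the main beta crystallin gene of the adult lens, had 15579, 7954 and 1278 CPM in FNcKO at 48 h, against 23197, 21643 and 40006 CPM in FNcKO at 0 h. WT libraries had 1774, 11365 and 6464 CPM at 48 h and 31341, 19120 and 20178 CPM at 0 h. There was no overlap between times, and the gene fell by 1.81 on the log2 scale averaged over genotypes (SE 0.55, 3.51-fold; edgeR, BH-adjusted p = 0.0170).

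Crybb3 was the exception among the 8. It had 1823, 1206 and 229 CPM in FNcKO at 48 h, against 1178, 1137 and 3012 CPM in FNcKO at 0 h. WT libraries had 281, 1022 and 920 CPM at 48 h and 2200, 867 and 1462 CPM at 0 h. The times overlapped in both genotypes, and 2 of 3 FNcKO libraries at 48 h lay above the 2 lower ones at 0 h. Its log2 difference of -0.87 averaged over genotypes did not pass the threshold (SE 0.50, edgeR, BH-adjusted p = 0.180). Crybb3 lies on chromosome 5 at chr5:113075839-113081584, minus strand, 7072 bases from Crybb2 at chr5:113058265-113068766 on the same strand. That these neighbours differ in their response was not tested.

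With both genotypes averaged, 7 of the 8 genes were called lower at 48 h and none higher, where 20.8% of all 14560 tested genes were called lower. Their median log2 difference was -2.01, with a range of -2.92 to -0.87, against a median of 0.00528 over all tested genes. In 6 of the 8 the 6 libraries at 48 h lay wholly below the 6 at 0 h, which was the case for 9.01% of tested genes. With libraries scaled by total counts only, which moved the median of all genes by 0.23 in WT and 0.29 in FNcKO, the 8 log2 differences averaged over genotypes lay between -2.65 and -0.60, and 7 genes were again called. DESeq2 also called 7 lower, against 23.4% of genes. Without the first libraries of both genotypes at 0 h, whose files disagree as described, 5 genes were called, and Cryaa (-1.53) and Crybb2 (-1.74) narrowly missed the threshold (edgeR, BH-adjusted p = 0.0551 and 0.0558).

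Within FNcKO alone the same 8 genes gave log2 differences of -2.91 to -0.71 with a median of -1.89, and none of the 8 passed BH adjustment in edgeR (adjusted p between 0.0667 and 0.507), where 9.9% of tested genes were called lower. At an unadjusted p under 0.05, 7 of the 8 were lower, against 16.7% of tested genes, and 7 had libraries at 48 h wholly below those at 0 h, against 17.3%. DESeq2 on the same counts called 6 of the 8 lower, against 13.1% of the genes to which it gave an adjusted p, and without both doubtful 0 h libraries edgeR again called 0.

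Within WT alone the log2 differences ran from -2.93 to -1.03 with a median of -2.13. In edgeR 1 of the 8, Cryab, was called lower (log2 -1.98, SE 0.68, BH-adjusted p = 0.0402), where 13.5% of tested genes were, while 7 of the 8 were lower at an unadjusted p under 0.05, against 19.4% of tested genes. The libraries at 48 h lay wholly below those at 0 h for 7 of the 8, against 23.9% of tested genes, and DESeq2 called 7 lower, against 16.5%. The Cryab call in WT was lost without any one of the 6 WT libraries, without the first FNcKO library at 0 h and without the second FNcKO library at 48 h. Leaving out the third FNcKO library at 48 h, which is in neither WT group, gave 6 calls in WT. Leaving out the first FNcKO library at 48 h gave 3 calls in WT and 6 in FNcKO. Calls within 1 genotype thus changed with the libraries that entered the fit, through which step was not tested.

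**Figure D2:**
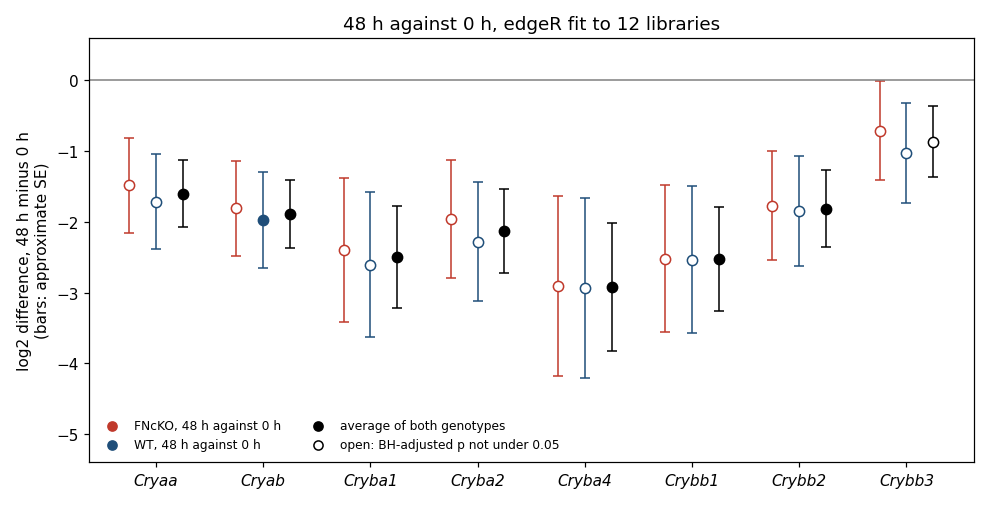
Log2 difference between 48 h and 0 h for each crystallin gene in FNcKO, in WT and averaged over both, with approximate SEs as bars; filled symbols have a BH-adjusted p under 0.05 in edgeR and open symbols do not. All 24 estimates lie below 0, and the averages run from -2.92 for Cryba4 to -0.87 for Crybb3.

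Between the genotypes no crystallin gene differed past the threshold. In FNcKO against WT at 48 h the 8 log2 differences were 0.34 to 0.97 with SEs of 0.65 to 1.19, and at 0 h they were 0.23 to 0.76 with SEs of 0.65 to 1.18. Libraries of the genotypes overlapped for all 8 genes at both times, where 9.74% of tested genes at 48 h and 16.6% at 0 h had none. In edgeR 0 of 8 were called at 48 h and 0 of 8 at 0 h, where 0.24% of all tested genes were called at 48 h and 0.144% at 0 h, in either direction. None of the 8 had an unadjusted p under 0.05, against 5.47% of tested genes at 48 h and 11% at 0 h, and DESeq2 also called 0, against 0.838% of genes at 48 h and 0.911% at 0 h. The largest estimate was that of Cryba1 at 48 h (0.97 on the log2 scale, SE 0.98; BH-adjusted p = 1 in edgeR), with 4258 ± 4589 CPM in FNcKO and 2171 ± 1419 CPM in WT (SD, n = 3 each).

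Averaged over both times, the FNcKO against WT differences were 0.30 to 0.87 with SEs of 0.46 to 0.84; 0 of 8 were called by edgeR or by DESeq2, against 0.481% of tested genes in edgeR and 1.98% in DESeq2, 0 of 8 had an unadjusted p under 0.05, against 10.5%, and 0 of 8 had libraries that did not overlap, against 0.529%. With any single library left out, the median over the 8 genes in this averaged comparison stayed positive, between 0.0688 and 0.713. All 8 estimates were also positive at each time on its own, where single libraries turned the sign of some. Without the first FNcKO library at 48 h the median over the 8 genes at 48 h became -0.285, against 0.547 with all libraries, and Cryaa stood at -0.02 and Cryba1 at -0.31. Without the third FNcKO library at 0 h, which had the highest share of crystallin counts of all 12, the median at 0 h became -0.0749, against 0.372 with all libraries, while Cryba1 at 0 h stayed between 0.0997 and 1.17 whichever single library was left out. Without both doubtful 0 h libraries the medians were 0.548 at 48 h and 0.795 at 0 h, and 0 of 8 genes were called at either time.

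The difference of the 48 h responses between FNcKO and WT was 0.02 to 0.32 on the log2 scale over the 8 genes, with SEs of 0.92 to 1.67 and BH-adjusted p values of 0.974 to 1.00 in edgeR. No crystallin gene passed, none had an unadjusted p under 0.05, against 5.05% of tested genes, and DESeq2 called 0 of 8, against 0.204% of genes; of all tested genes 0% were called in this contrast by edgeR. With SEs of this size, a missing call does not show that the responses were alike. Without both doubtful 0 h libraries the median over the 8 genes was -0.297, against 0.188 with all libraries, again with 0 calls, and with any single library left out it ran from -0.685 to 0.731.

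Spread among replicates was wide for these genes at 48 h, and some other lens genes shared it. In FNcKO at 48 h Crygs, a gamma crystallin gene, ran from 202 to 4229 CPM. The fiber cell genes Mip and Bfsp1 ran from 80.4 to 1820 CPM and from 35.2 to 145 CPM there. The SD of log2 CPM over the 3 libraries was 1.52 to 2.60 for the 8 genes in FNcKO at 48 h, against 0.49 to 0.96 in FNcKO at 0 h. In WT it was 1.04 to 2.12 at 48 h, against 0.36 to 0.73 at 0 h. The median over all tested genes was 0.30 in FNcKO at 48 h, 0.33 in FNcKO at 0 h, 0.26 in WT at 48 h and 0.24 in WT at 0 h. All 8 crystallin genes lay above the 90th percentile of all tested genes in both 48 h groups, which stood at 1.02 in FNcKO and 0.85 in WT. Cryba1, Cryba4 and Crybb1 varied most in FNcKO at 48 h and Cryba4 most in WT at 48 h, while Cryaa, Cryab and Crybb3 were the 3 least variable in both. Since the libraries are only 3 a group and the 8 genes share them, the SDs are descriptions without a test.

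**Figure D3:**
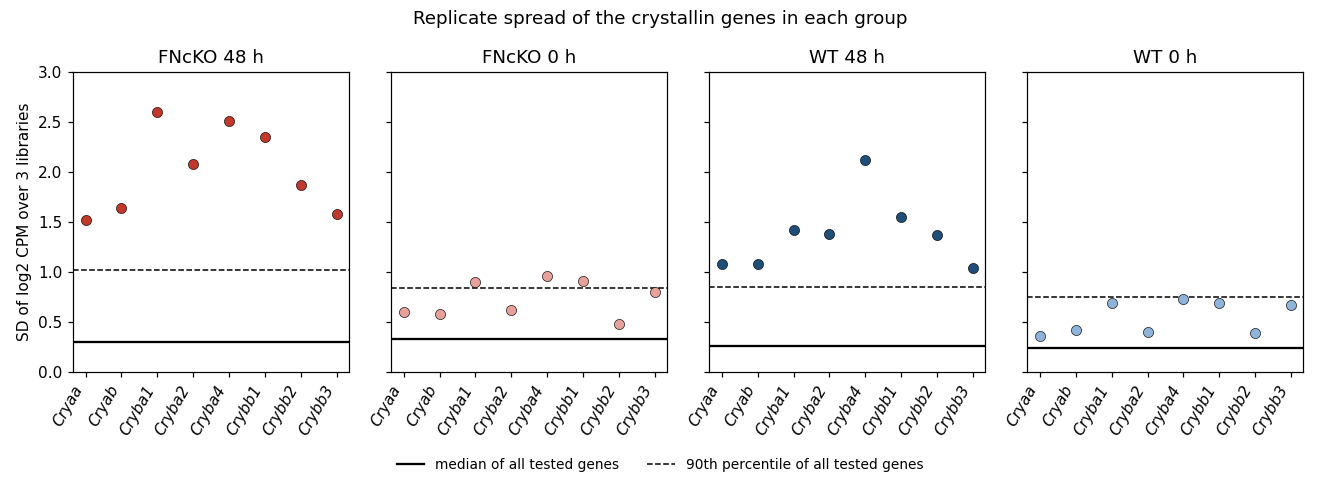
SD of log2 CPM over the 3 libraries of each group for the 8 crystallin genes, with the median (solid line) and the 90th percentile (dashed line) of all tested genes in that group. The points of both 48 h groups lie above the dashed line, between 1.52 and 2.60 in FNcKO and between 1.04 and 2.12 in WT.

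At 48 h in FNcKO the first library was highest, the second intermediate and the third lowest for all 8, and in WT the first library was lowest for all 8, while the other two changed places between genes. Fn1 ran in the opposite order at 48 h. The summed share of the 8 genes was 11.5%, 7.04% and 1.45% in FNcKO where Fn1 was 146, 297 and 687 CPM, and 1.75%, 7.19% and 5.76% in WT where Fn1 was 1514, 527 and 978 CPM. The 48 h libraries fall into 2 genotypes of 3, so no correlation is given.

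Sums of some other marker lists went partly with the crystallins across the 48 h libraries. In WT the sum of epithelial genes was highest in the third library, while the crystallin share was highest in the second. The summed level of 19 lens fiber cell genes was 5568, 3126 and 750 CPM in FNcKO at 48 h and 936, 2879 and 2717 CPM in WT at 48 h, and lay between 9584 and 14555 CPM in FNcKO at 0 h and between 7691 and 11123 CPM in WT at 0 h. That of 16 lens epithelial cell genes was 13607, 12704 and 6765 CPM in FNcKO at 48 h and 7420, 9628 and 11973 CPM in WT at 48 h, against 25627 to 29414 CPM in FNcKO at 0 h and 16590 to 28364 CPM in WT at 0 h. The summed level of 12 leukocyte genes ran the other way in FNcKO, with 213, 314 and 510 CPM at 48 h, and was highest in the first WT library, with 1005, 459 and 318 CPM at 48 h, against 37.3 to 69.8 CPM in FNcKO at 0 h and 47.2 to 105 CPM in WT at 0 h. The library with the fewest crystallin counts in each genotype at 48 h thus had the lowest sums of fiber and epithelial genes and the highest sum of leukocyte genes. The part of these cell types in the crystallin levels was not tested.

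Levels can be compared between genes only per length, for which the deposited RPKM values (counts per length and library size) were used. Cryaa had the highest RPKM of the 8 in all 12 libraries, with means of 33279 ± 23390 in FNcKO at 48 h, 76115 ± 22691 in FNcKO at 0 h, 24584 ± 13553 in WT at 48 h and 69724 ± 13561 in WT at 0 h. Crybb2 came second in all libraries but one at 0 h in FNcKO, where Cryba1 was ahead of it. At 0 h in WT the order of mean RPKM was Cryaa, Crybb2, Cryab, Cryba1, Cryba2, Cryba4, Crybb3 and Crybb1, with 69724, 31276, 19685, 18405, 5950, 2242, 1737 and 1735 RPKM. Of these neighbours, Cryab and Cryba1 overlapped in their libraries, as did Cryba4, Crybb3 and Crybb1, while the other steps did not overlap. In FNcKO at 48 h and in WT at 48 h the libraries of each gene overlapped those of the next one down, so that within-group order there is best read library by library.

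Read that way, a pair of genes changed places. Cryba4 was at place 6 in all 6 libraries at 0 h and at place 7 or 8 in all 6 at 48 h. Crybb3 was at place 7 or 8 in all 6 libraries at 0 h and at place 5 or 6 in all 6 at 48 h. The other 6 genes moved by at most 2 places across the 12 libraries.

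The make-up of the crystallin pool, as the percentage of the summed counts of the 8 genes, shows the same shift without any scaling between libraries. Crybb3 made up 1.64%, 1.74% and 1.79% of these counts in FNcKO at 48 h, against 0.702%, 0.812% and 0.974% in FNcKO at 0 h. In WT it made up 1.87%, 1.58% and 1.75% at 48 h, against 1.06%, 0.731% and 0.964% at 0 h. All 6 percentages at 48 h exceeded all 6 at 0 h, and they lay close together although the libraries differed several-fold in total crystallin counts. The count of Crybb3 per count of Cryaa was accordingly near constant at 48 h, at -5.20 ± 0.07 on the log2 scale in FNcKO and -5.16 ± 0.07 in WT (SD, n = 3 each), against -6.02 ± 0.33 in FNcKO at 0 h and -5.94 ± 0.32 in WT at 0 h.

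Cryba4 was the reverse case. It made up 0.736%, 0.130% and 0.205% of the pool in FNcKO at 48 h, against 0.791%, 1.00% and 1.39% in FNcKO at 0 h, and 0.186%, 0.810% and 0.273% in WT at 48 h, against 1.37%, 0.900% and 0.928% in WT at 0 h. The log2 ratio of its counts to those of Cryaa was -7.88 ± 1.395 in FNcKO at 48 h, against -5.69 ± 0.49 in FNcKO at 0 h, and -7.49 ± 1.16 in WT at 48 h, against -5.73 ± 0.38 in WT at 0 h. Percentages within a pool are bound to sum to a whole, so a higher one for one gene lowers the others.

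The alpha crystallins together made up 78.6% ± 6.21 of the pool in FNcKO at 48 h, against 69.9% ± 3.92 in FNcKO at 0 h, and 76.8% ± 3.88 in WT at 48 h, against 71.4% ± 2.18 in WT at 0 h. Cryaa alone made up 63.7% ± 5.82 in FNcKO at 48 h against 53.5% ± 4.24 in FNcKO at 0 h, and 62.0% ± 2.84 in WT at 48 h against 55.6% ± 1.64 in WT at 0 h. Cryab made up 14.2%, 16.0% and 14.8% in FNcKO at 48 h against 16.4% ± 0.437 in FNcKO at 0 h, and 14.8% ± 1.58 in WT at 48 h against 15.8% ± 1.37 in WT at 0 h. For the summed alpha crystallins the libraries of the 2 times overlapped in both genotypes, and for Cryaa in FNcKO but not in WT.

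**Figure D4:**
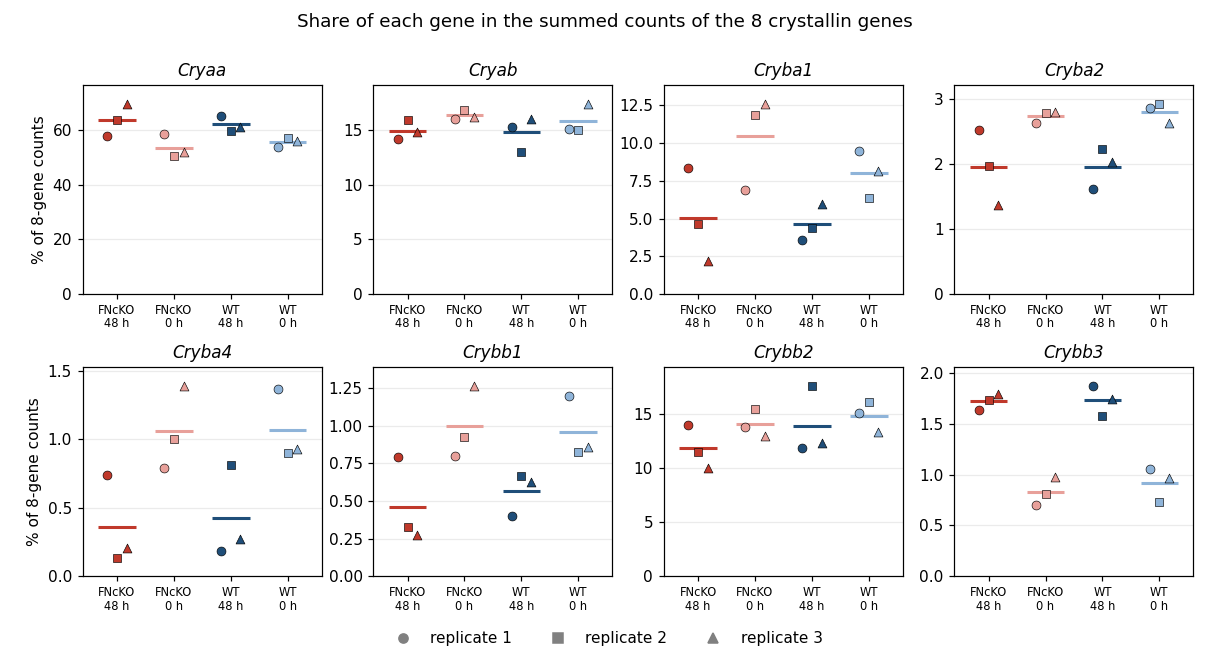
Percentage of the summed counts of the 8 crystallin genes that each gene held in every library; symbols are libraries, shapes give the replicate number and lines are means of 3. Crybb3 lies between 1.58% and 1.87% in all 6 libraries at 48 h and between 0.702% and 1.06% in all 6 at 0 h.

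The likeness of profiles was measured as the root mean square difference of centred log2 CPM over the 12 libraries. Cryaa and Cryab were each other's nearest among the 8 genes, at 0.20 log2 units, Cryba2 and Crybb2 were each other's nearest at 0.23, and Cryba1 and Crybb1 at 0.30. Cryba4 was nearest to Crybb1 at 0.57 and Crybb3 to Cryaa at 0.44, and these 2 genes were the farthest apart, at 1.58. Among the tested genes outside the 8, the 5 closest to their mean profile were Crygs at 0.21, Tmem40 at 0.23, Adamts17 at 0.26, Gja3 at 0.33 and Lim2 at 0.34, where the median of all others was 1.68. Crygs encodes gamma S crystallin, Gja3 a connexin of fiber cell gap junctions and Lim2 a membrane protein of fiber cells. All of these profiles share the same libraries and their depths, and the values are descriptions.

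Promoter sequences are shown for Cryba4 and Crybb3, the genes with the largest and the smallest change, and for Cryba1 and Crybb1, a pair of beta crystallins whose profiles were each other's nearest. They are the 250 bases before the RefSeq start on GRCm38.p6, written along the strand of the gene, with capitals marking matches. The letters TGCTGA form a Maf half-site, which reads TCAGCA when it lies on the opposite strand, and TATAAA is a TATA box.
Cryba4 (chr5:112252519-112252768, - strand): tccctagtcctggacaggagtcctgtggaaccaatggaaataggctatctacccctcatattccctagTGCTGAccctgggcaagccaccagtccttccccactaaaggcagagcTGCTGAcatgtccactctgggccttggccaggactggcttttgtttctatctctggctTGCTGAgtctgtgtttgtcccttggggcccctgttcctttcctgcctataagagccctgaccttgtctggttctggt
Crybb3 (chr5:113081585-113081834, - strand): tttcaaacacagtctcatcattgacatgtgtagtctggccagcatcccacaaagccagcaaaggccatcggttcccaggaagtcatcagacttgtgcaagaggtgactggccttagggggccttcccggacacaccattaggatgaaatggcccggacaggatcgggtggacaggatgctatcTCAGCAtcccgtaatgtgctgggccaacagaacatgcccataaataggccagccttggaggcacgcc
Cryba1 (chr11:77725294-77725543, - strand): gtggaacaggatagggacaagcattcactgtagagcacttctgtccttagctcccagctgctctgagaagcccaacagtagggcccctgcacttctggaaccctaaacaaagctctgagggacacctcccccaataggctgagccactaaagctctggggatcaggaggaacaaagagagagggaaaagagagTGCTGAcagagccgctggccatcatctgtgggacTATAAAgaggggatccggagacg
Crybb1 (chr5:112255570-112255819, + strand): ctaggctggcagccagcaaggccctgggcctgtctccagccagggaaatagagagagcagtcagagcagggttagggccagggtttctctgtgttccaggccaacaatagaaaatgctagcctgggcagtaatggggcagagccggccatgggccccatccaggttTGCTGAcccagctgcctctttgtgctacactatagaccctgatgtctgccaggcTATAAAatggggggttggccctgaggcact

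Promoters of 7 of the 8 genes were matched in the RefSeq table, all but that of Cryab. The letters TGCTGA on either strand stood in 6 of these 7 and not in that of Crybb2, where 16.1% of 32851 mouse promoters of the same 250 bases held them. Cryba4 held them at 3 places, which began 182, 135 and 77 bases before the start, and Crybb3 at 1 place, 67 bases before it, on the other strand. Cryba1 and Crybb1 each held TGCTGA at 1 place, 57 and 84 bases before the start, followed by TATAAA at 23 and 30 bases before it; TATAAA on either strand stood in 12.4% of all promoters. The heat shock element pair GAANNTTC stood in none of the 7 and in 6.69% of all promoters. A match describes letters and does not show binding, and the 250 bases leave out more distant elements.

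Of the 20 genes listed as regulators of crystallin genes, 13 fell at 48 h averaged over genotypes and none rose, where 20.8% of tested genes were called lower and 24.5% higher, with a median log2 difference of -0.55 against 0.00528 over all tested genes. Maf, the large Maf factor of lens fiber differentiation, had 139 ± 85.8 CPM in FNcKO at 48 h, against 436 ± 79.2 in FNcKO at 0 h, and 131 ± 47.1 CPM in WT at 48 h, against 354 ± 55.3 in WT at 0 h (a log2 difference of -1.54 with an SE of 0.33; BH-adjusted p = 0.00254 in edgeR). Hsf4, the heat shock factor of the lens, had 3.90 ± 3.58 CPM in FNcKO at 48 h, against 22.2 ± 10.6 in FNcKO at 0 h, and 7.22 ± 6.39 CPM in WT at 48 h, against 24.4 ± 11.4 in WT at 0 h (a log2 difference of -2.13; BH-adjusted p = 0.00566 in edgeR). Foxe3, a forkhead factor of the lens epithelium, and Tdrd7, an RNA granule protein whose loss causes cataract, fell by 1.68 and 1.53 on the log2 scale (edgeR, BH-adjusted p = 0.0145 and 0.00196). With total counts only, 9 of the 20 fell and 1 rose. The list covers factors of both the epithelium and the fibers, and how far it bears on the crystallin levels was not tested.

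The gamma crystallins are structural proteins made almost wholly in fiber cells. Averaged over genotypes, 8 of 8 were called lower at 48 h by edgeR and 6 by DESeq2. Of the 8, Cryga, Cryge and Crygf had at most 0.475, 0.528 and 0.285 CPM in any library at 48 h. These passed the low-count filter through the 0 h libraries and could hardly be called other than lower. Of all genes 20.8% were called lower by edgeR and 23.4% by DESeq2. Crygs, the most abundant of them here, had 2061 ± 2031 CPM in FNcKO at 48 h, against 9745 ± 5356 in FNcKO at 0 h, and 1278 ± 857 CPM in WT at 48 h, against 6727 ± 2496 in WT at 0 h (a log2 difference of -2.32 with an SE of 0.64; BH-adjusted p = 0.0121 in edgeR). Crygd had 6.67 ± 7.69 CPM in FNcKO at 48 h, against 248 ± 255 in FNcKO at 0 h, and 2.93 ± 3.52 CPM in WT at 48 h, against 210 ± 302 in WT at 0 h (a log2 difference of -5.68 with an SE of 1.12; BH-adjusted p = 0.00205 in edgeR). Crygf had no count in any FNcKO library at 48 h, so no fold is given for it. Several of the gamma crystallin genes are close copies of one another, and reads could be split among those. All 8 together held between 0.0252% and 1.39% of the counts of a library.

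Of 19 lens fiber cell genes, 16 fell and 1 rose averaged over genotypes, where 20.8% of tested genes were called lower and 24.5% higher. The median log2 difference of the 19 was -1.90, and with total counts only 15 fell and 1 rose. The largest falls among them were in Birc7 (log2 -4.43), Dnase2b, the nuclease that removes fiber cell DNA (-4.13), Bfsp1, a beaded filament protein (-3.05), and Lenep (-2.94), with edgeR BH-adjusted p values of 0.000999, 0.00019, 0.000911 and 0.00574. Birc7 and Dnase2b had at most 0.583 CPM in any library at 48 h. At 0 h their means were 6.61 and 3.27 CPM in FNcKO and 3.69 and 5.93 CPM in WT. Both passed the low-count filter through the 0 h libraries and could hardly be called other than lower. Of 16 lens epithelial cell genes 12 fell and 3 rose, with a median of -1.03, and 10 fell and 3 rose with total counts only. Npnt, an extracellular matrix protein, fell by 2.97, Fgfr3, a growth factor receptor, by 2.00 and Col4a2, a chain of capsule collagen, by 1.78, while Jag1, a Notch ligand, rose by 1.70 on the log2 scale (edgeR, BH-adjusted p = 2.07e-05, 0.0006, 0.00101 and 0.00016).

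Other chaperones gave a mixed picture. Of 6 other tested genes with small heat shock protein symbols (Hspb), 2 rose and 2 fell at 48 h averaged over genotypes. Over all tested genes 20.8% were called lower and 24.5% higher. Hspb8 had 22.5 ± 5.08 CPM in FNcKO at 48 h, against 9.90 ± 7.48 in FNcKO at 0 h, and 40.9 ± 7.39 CPM in WT at 48 h, against 17.9 ± 3.24 in WT at 0 h (a log2 difference of 1.18 with an SE of 0.32; BH-adjusted p = 0.00949 in edgeR). Hspb6 rose by 0.82 and Hspb11 fell by 0.65 on the log2 scale (edgeR, BH-adjusted p = 0.0371 and 0.0290), and Hspb2 fell as given above; with total counts only the Hspb11 value was -0.41 and no longer passed (adjusted p = 0.140). A further list of 12 genes covered other chaperones, their partners and the heat shock factors Hsf1 and Hsf2. Of these 12, 5 rose and none fell, with a median log2 difference of 0.39, and 8 rose with total counts only. Among them Bag3, a co-chaperone that works with Hspb8, rose by 1.19 and Hspd1, the mitochondrial chaperonin, by 1.09 on the log2 scale (edgeR, BH-adjusted p = 4.25e-05 and 0.000165). Genes that carry crystallin in their name but are not major lens proteins were split, with 3 of 6 tested higher and 3 lower, or 2 lower with total counts only. Crym, a thyroid hormone binding protein, rose by 3.66 and Aim1, which has beta gamma crystallin folds, by 1.79, while Crybg3 fell by 1.20 on the log2 scale (edgeR, BH-adjusted p = 2.75e-05, 2.6e-05 and 2.74e-06).

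**Figure D5:**
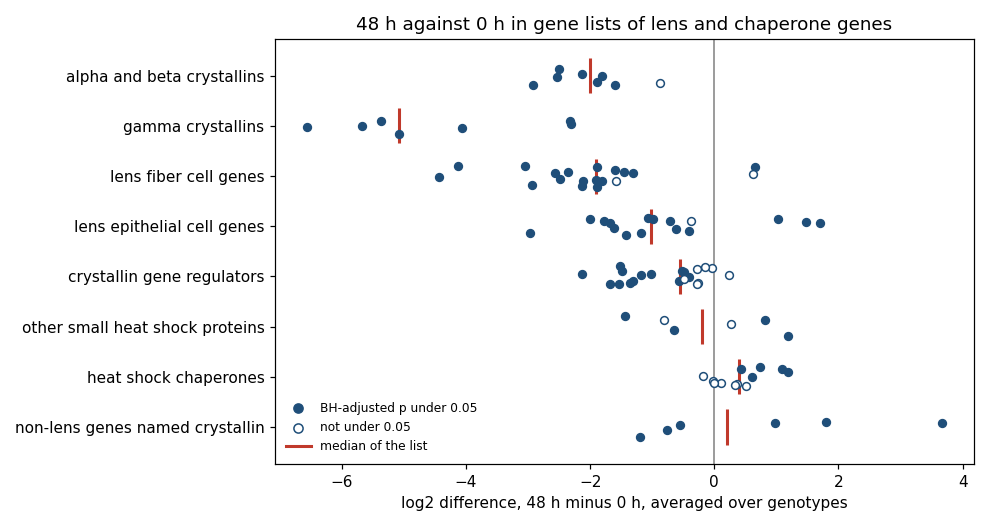
Log2 difference between 48 h and 0 h averaged over genotypes for the genes of each list; each point is a gene, filled where the BH-adjusted p in edgeR is under 0.05, and the vertical line is the median of the points drawn. Crygf, with no count in FNcKO at 48 h, is not drawn; 7 of the 8 alpha and beta crystallins are filled and all lie below 0, as do the gamma crystallins.

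Markers of other cells that could be attached to the capsule were read in the same comparison. Averaged over genotypes, 11 of 12 leukocyte genes tested and 8 of 10 vascular endothelial genes rose and none fell. Of 14 photoreceptor genes 2 fell, of 5 corneal epithelium genes tested 3 fell, and none of either list rose. Of 9 pigment cell genes 2 rose and 2 fell. Over all tested genes 20.8% were called lower and 24.5% higher, so the photoreceptor and pigment counts lay near or below those shares. With total counts only 2 corneal genes fell, and the other counts of these lists stood. Among the genes that rose, S100a8, S100a9, Ccr2, Tie1, Emcn and Cldn5 had group means of at most 0.655 CPM at 0 h. They passed the low-count filter through the 48 h libraries and could hardly be called other than higher. Summed vascular endothelial genes held 34.3 to 76.9 CPM in FNcKO at 48 h and 10.8 to 26.1 CPM in FNcKO at 0 h. In WT they held 56.9 to 129 CPM at 48 h and 20.3 to 53.2 CPM at 0 h. Of the corneal genes that fell, Clu had means of 4767 CPM in FNcKO at 48 h and 9203 CPM in FNcKO at 0 h. Those of Aldh3a1 were 1100 and 2161 CPM, and those of the keratin Krt4 1.68 and 16.7 CPM. In WT at 48 h and 0 h the means of Clu were 4229 and 7683 CPM. Those of Aldh3a1 in WT were 688 and 875 CPM, and those of Krt4 0.433 and 6.09 CPM. Within a single genotype Aldh3a1 did not pass (edgeR, BH-adjusted p = 0.0616 in FNcKO and 0.476 in WT). Which cells these transcripts came from was not tested. The median log2 difference of the pigment cell genes was 1.24 in WT and -1.31 in FNcKO. Summed photoreceptor genes, which a lens lacks, lay between 320 and 3270 CPM in FNcKO at 48 h, between 1218 and 4373 CPM in FNcKO at 0 h, between 1217 and 3658 CPM in WT at 48 h and between 2160 and 6955 CPM in WT at 0 h. Library by library at 48 h they stood at 3270, 320 and 1995 CPM in FNcKO, where the order differed from that of the summed crystallin share, and at 1217, 3658 and 1917 CPM in WT, where it was the same. The part of these cells in the crystallin levels was not tested.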

How the data were processed

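The authors deposited, for each library, whole-number read counts per gene and RPKM, per the file headers, with gene coordinates and a length. RPKM equals the count divided by that length and by the summed counts (largest relative difference 5.23e-15) and was used only to compare genes with each other. The submitters' processing notes name FastQC, Trim Galore 0.4.4, TopHat2 2.1.0, bedtools 2.17, SAMtools 1.4, HTSeq 0.6.1p1, edgeR 3.16.5 and mm10. The roles of these tools, the annotation, the strand setting and the handling of multi-mapped reads are not given in the labels or headers.

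The fit used edgeR 4.0.16 in R 4.3.3. Genes passing filterByExpr were scaled by TMM (factors 0.754 to 1.16) and fitted by a robust quasi-likelihood model with 4 group means over 12 libraries, checked on simulated data. BH adjustment ran over all 14560 tested genes, with a threshold of 0.05. SEs are approximate, taken as the absolute log2 difference over the root of F. The 7 comparisons were time within each genotype, genotype at each time, the difference of the responses, and time and genotype averaged. Log2 CPM used a prior count of 1. Alternatives changed the scaling, filter, dispersion, tool (DESeq2 1.42.0), libraries and replicate block.

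The members, lists and tests were chosen with earlier results of these data known. All 8 members are named, with up to 4 genes per other list that passed and changed most in the averaged time comparison. Hspb2 and the 5 genes nearest to the mean member profile are also named. Pax6, Mip, Crygs as the most abundant gamma crystallin and Fn1 were named outside this rule. The combined table, which disagrees with the per-library files on WT 0 h replicate 1, was not used for any level or test.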

Additional observations from a re-analysis of the deposited data

How the results depend on the processing

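Over 30 results on single members, 620 alternatives gave the same direction and side of the threshold in 570, lost the call in 14, gained one in 33 and reversed the sign in 3. Averaged over genotypes, 5 to 7 members were called lower at 48 h under all 20 alternatives and 7 without any single library; the lowest count, 5, came without both 0 h replicate 1 libraries. In WT over time, where 1 member was called, DESeq2 called 7, a fit to only the groups compared 7, a fit without the robust option 2, no filter on low counts 0, the replicate block 0, and the fit without both 0 h replicate 1 libraries 0; leaving out one library gave 0 to 6. In FNcKO over time, where 0 were called, DESeq2 called 6 and leaving out one library gave 0 to 6, with 6 without the first FNcKO library at 48 h and 1 without the first WT library at 48 h. The median over the members for FNcKO against WT at 48 h ran from -0.285 to 1.02 when one library was left out. The reversed values were Cryaa at -0.0199 and Cryba1 at -0.31 for FNcKO against WT at 48 h without the first FNcKO library at 48 h (leave-one-out ranges -0.0199 to 1.01 and -0.31 to 1.53), and Cryaa at -0.0531 for FNcKO against WT at 0 h without the third FNcKO library at 0 h (-0.0531 to 0.55). None of these genotype differences passed the threshold under any alternative. The cause of the changed counts was not tested.

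Deviations of same-numbered libraries from their group means gave r from -0.461 to 0.275 over 12 pairs, with 3 over 0.1. With 3 libraries a group these values cannot show whether the replicate numbers pair the samples, and the main fit used no pairing. The replicate block left 7 members called in the averaged comparison. Scaling by total counts only moved the median of all genes by 0.23 in WT and 0.29 in FNcKO over time and the share of higher calls to 76.2% in WT, against 58.5% with TMM, and to 82.4% in FNcKO, against 60.1% with TMM. Over all tested genes, DESeq2 called 122 genes between genotypes at 48 h, where edgeR called 35, 130 at 0 h, where edgeR called 21, 288 averaged over times, where edgeR called 70, and 28 for the difference of the responses, where edgeR called 0.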
